A study of Drosophila melanogaster with 7 samples.

Results

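The homeotic (Hox) genes of Drosophila melanogaster lie in a pair of clusters on chromosome arm 3R, the bithorax complex with Ubx, abd-A and Abd-B and the Antennapedia complex with lab, pb, Dfd, Scr and Antp. The sites described here are the chromatin immunoprecipitation sequencing (ChIP-seq) peaks of 4 insulator proteins whose midpoint lay on 3R at 12480000 to 12810000 (the 330 kb window of the bithorax complex) or at 2480000 to 2830000 (the 350 kb window of the Antennapedia complex), in the coordinates of the deposited lists, whose sequence names are those of genome release 5. They number 153 peaks, 74 in the bithorax complex and 79 in the Antennapedia complex, of 40204 peaks in the 7 lists. The windows were set by position and not by peak values, but the complexes were chosen with earlier results of these data known.

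The lists came from Kc167 cells, an established embryonic cell line, fixed with 1% formaldehyde and sorted into mitotic and interphase populations by staining of phosphorylated H3 and of DNA content. The mitotic libraries were precipitated for CP190, dCTCF, BEAF and Su(Hw), and the interphase libraries for CP190, dCTCF and BEAF. An interphase Su(Hw) list was not analysed here. Each group was 1 library of the same cell line, so differences have no replicate check, no p-value is given, and since depth is unknown, a site without a call is not shown to be unbound.

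Hox genes set the identity of segments along the body axis. In the Antennapedia complex, lab, pb and Dfd act in the head, Scr in the labial and first thoracic segments and Antp in the thorax. In the bithorax complex, Ubx acts in the posterior thorax and anterior abdomen, abd-A in the middle abdomen and Abd-B in the posterior abdomen. The large regulatory region of the bithorax complex is divided into segment-specific domains that are kept apart by boundary elements, several of which are known to bind dCTCF, the fly homolog of CTCF. CP190 is a zinc-finger and BTB-domain protein that other insulator proteins recruit, BEAF is the boundary element-associated factor, and Su(Hw) is known for binding the gypsy insulator.

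In the RefSeq gene table of genome release 6, which matched 8 of the 8 Hox genes by symbol, the genes run from low to high coordinate in the order Ubx, abd-A, Abd-B and in the order lab, pb, Dfd, Scr, Antp. The stretch from Ubx to Abd-B holds 6 protein-coding genes and that from lab to Antp holds 19, among them zen2, zen, bcd, Ama and ftz. Only this order was used. The table is of another release than the lists, so no peak was assigned to a gene, promoter, intron or named boundary element, and no sequence is shown.

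The bithorax complex held 16 mitotic and 26 interphase CP190 peaks, 8 mitotic and 14 interphase dCTCF peaks, 0 mitotic and 8 interphase BEAF peaks, and 2 mitotic Su(Hw) peaks. The Antennapedia complex held 19 mitotic and 28 interphase CP190 peaks, 7 mitotic and 15 interphase dCTCF peaks, 0 mitotic and 7 interphase BEAF peaks, and 3 mitotic Su(Hw) peaks. The rest of 3R held 793 and 2420 CP190 peaks, 510 and 629 dCTCF peaks, 534 and 1263 BEAF peaks in mitosis and interphase, and 200 mitotic Su(Hw) peaks. Merging the peaks of the 7 lists wherever they overlapped by at least 1 bp gave 27 sites in each complex. In the bithorax complex 15 sites were called in both phases, 1 in mitosis alone and 11 in interphase alone. In the Antennapedia complex 21 sites were called in both phases, 0 in mitosis alone and 6 in interphase alone. Merged sites of the rest of 3R were not divided by phase, so these counts are not shown to be particular to the complexes.

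**Figure D1:**
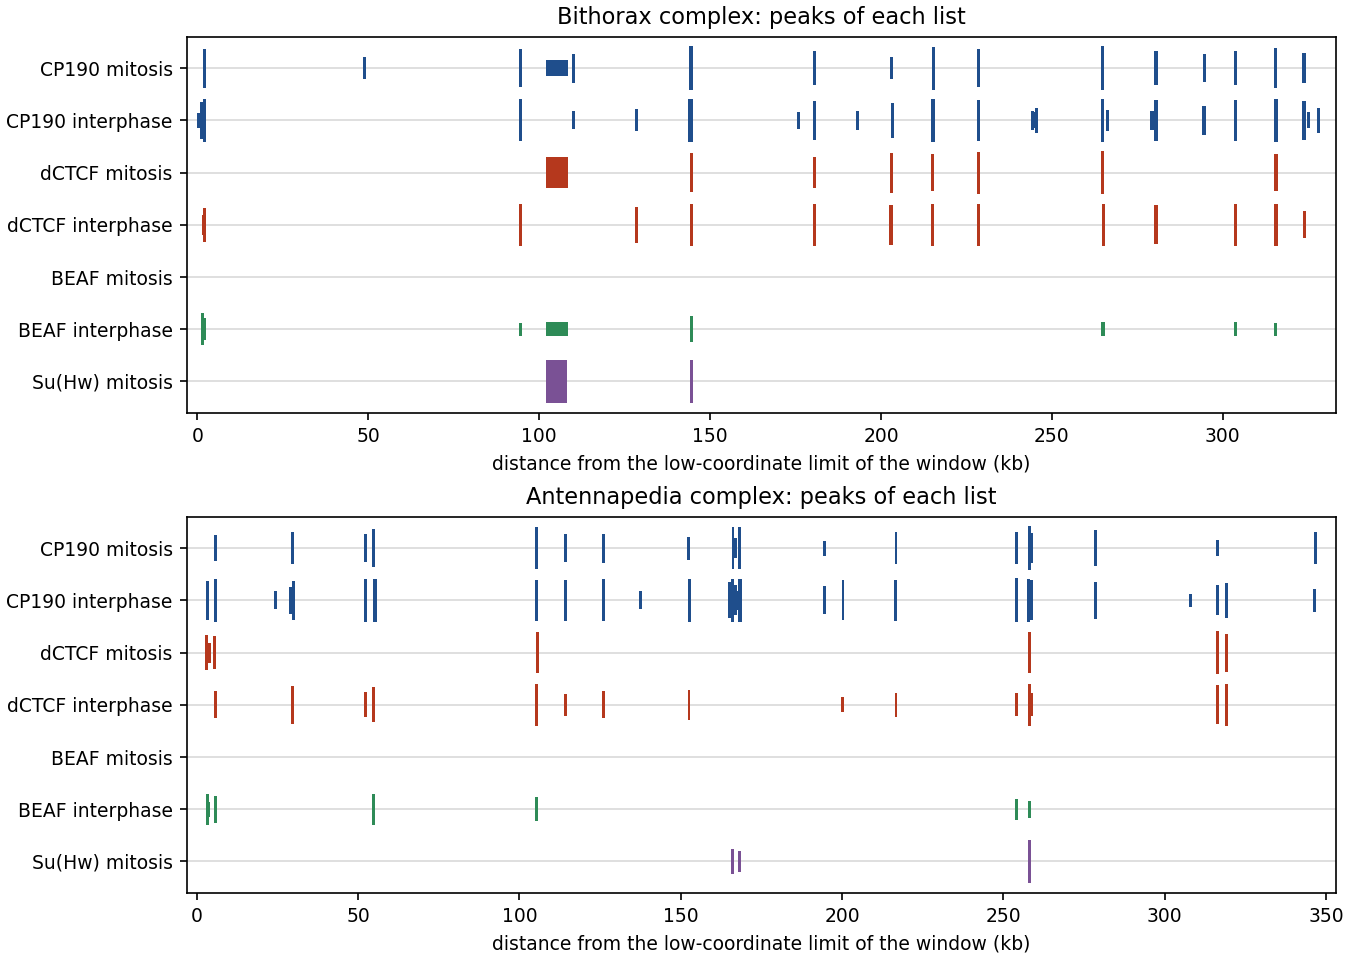
Peaks of the 7 lists along the bithorax complex (top) and the Antennapedia complex (bottom). The x axis is the distance in kb from the low-coordinate limit of each window; each bar is a peak, widened where needed to stay visible, and its height grows with the rank of its score among the 3R peaks of the same list. The BEAF mitosis rows are empty (0 peaks in each complex), while most interphase dCTCF bars have an interphase CP190 bar and a mitotic CP190 bar at the same position.

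The windows' limits ran close to some peaks. At the low limit of the bithorax complex the interphase CP190 peak at 12480015 to 12480458 (score 69.3) lay inside. The nearest interphase CP190 peak outside was at 12477668 to 12478340 (366.62). An interphase BEAF peak lay there too, at 12477643 to 12478372 (962.96), above the 840.06 of the highest BEAF peak inside. At the high limit of the bithorax complex the interphase CP190 peak at 12807571 to 12808437 (212.57) lay inside and that at 12810002 to 12810481 (394.54) outside. In the Antennapedia complex the outermost peaks were the mitotic dCTCF peak at 2482470 to 2483221 (149.08) and the mitotic CP190 peak at 2826289 to 2827022 (193.13). The nearest mitotic dCTCF peak below its low limit was at 2472392 to 2473116 (84.98), and the nearest mitotic CP190 peak above its high limit was at 2862924 to 2863470 (92.27). The scores are the authors', with a floor of 50 and many ties at 3100, and they rank peaks within 1 list only.

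BEAF was the protein for which the complexes stood lowest against the rest of the arm. No mitotic BEAF peak lay in either complex. The rest of 3R had 1.96 mitotic BEAF peaks per 100 kb, and the exact 95% interval of the density ratio reached up to 0.572 in the bithorax complex and 0.539 in the Antennapedia complex. When the rest of 3R was cut into consecutive windows of 330 kb, each of the 80 windows held at least 1 mitotic BEAF peak, with a median of 6 and a highest count of 23. Of 75 windows of 350 kb, 1 held none.

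The empty stretch around the Antennapedia complex was the longest interval of 3R between neighbouring mitotic BEAF peaks. It ran from 2208898 to 2892532, a length of 683.6 kb, and was followed by an interval of 511.9 kb elsewhere on the arm. The stretch around the bithorax complex, from 12477108 to 12827833, was 350.7 kb long and ranked 8 among 533 such intervals, whose median was 18.4 kb. The nearest mitotic BEAF peak on its low side lay 3.11 kb outside the window, with a score of 55.94, and that on its high side 18.3 kb outside, with a score of 1034.8. The bithorax value therefore depends on the limits: with the window extended by 20 kb on each side it held 4 mitotic BEAF peaks, and the density ratio was 0.553 (95% interval 0.15 to 1.43).

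Interphase BEAF peaks of the complexes were few, and their median scores were below that of the rest of 3R. The bithorax complex had 2.42 interphase BEAF peaks per 100 kb and the Antennapedia complex 2.00, against 4.64 in the rest of 3R. The ratios were 0.522 (0.225 to 1.03) and 0.431 (0.173 to 0.891), where intervals are exact 95% intervals of a ratio of counts and, like all intervals here, cover counting error only. The interval of the bithorax complex includes 1, and its ratio was 0.995 (0.578 to 1.60) with the window extended by 20 kb. Of the 15 interphase BEAF peaks, 0 scored in the highest 20% of the 3R list, compared with 20.3% of the peaks in the rest of 3R, a share that the Wilson interval of 0 of 15, up to 20.4%, includes. Their median score was 57.39 in the bithorax complex and 181.04 in the Antennapedia complex, against 352.45 in the rest of the arm.

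The highest scoring interphase BEAF peak of each complex lay close to the low limit of its window. In the bithorax complex the 2 highest were at 12481264 to 12481864 (score 840.06) and 12624161 to 12624742 (213.85), and in the Antennapedia complex at 2483003 to 2483321 (707.69) and 2534604 to 2534919 (631.15). None of these had a mitotic BEAF call.

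Since no mitotic BEAF peak lay in the complexes, 0 of 8 interphase BEAF peaks in the bithorax complex and 0 of 7 in the Antennapedia complex were retained, a term used here for an interphase peak sharing at least 1 bp with a mitotic peak of that protein. In the rest of 3R 41.8% were retained. A count of 0 of 15 allows a share of up to 20%, and the difference from the rest of 3R was -41.8 percentage points (-44.5 to -21.2; a Newcombe interval). With the windows extended by 20 kb, 4 of 17 interphase BEAF peaks of the bithorax complex were retained (23.5%, 9.56 to 47.3%) and 0 of 8 of the Antennapedia complex. The low scores move with this result. In the rest of 3R, of the 791 BEAF peaks that scored no higher than the 840.06 of the highest BEAF peak in the complexes, 9.10% (7.29 to 11.3%; Wilson interval) were retained. Weighted to the scores of the members in bands of 20%, the retained share of the rest of 3R was 14.0% for the bithorax complex and 18.3% for the Antennapedia complex. The peaks with scores of 840.06 and 707.69 fell in the band from 700.35 to 1936.37, in which 220 of 253 peaks of the rest of 3R were retained and 0 of these 2. Both scores lay near the low end of that band, so neither its share nor the weighted shares match them closely.

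**Figure D2:**
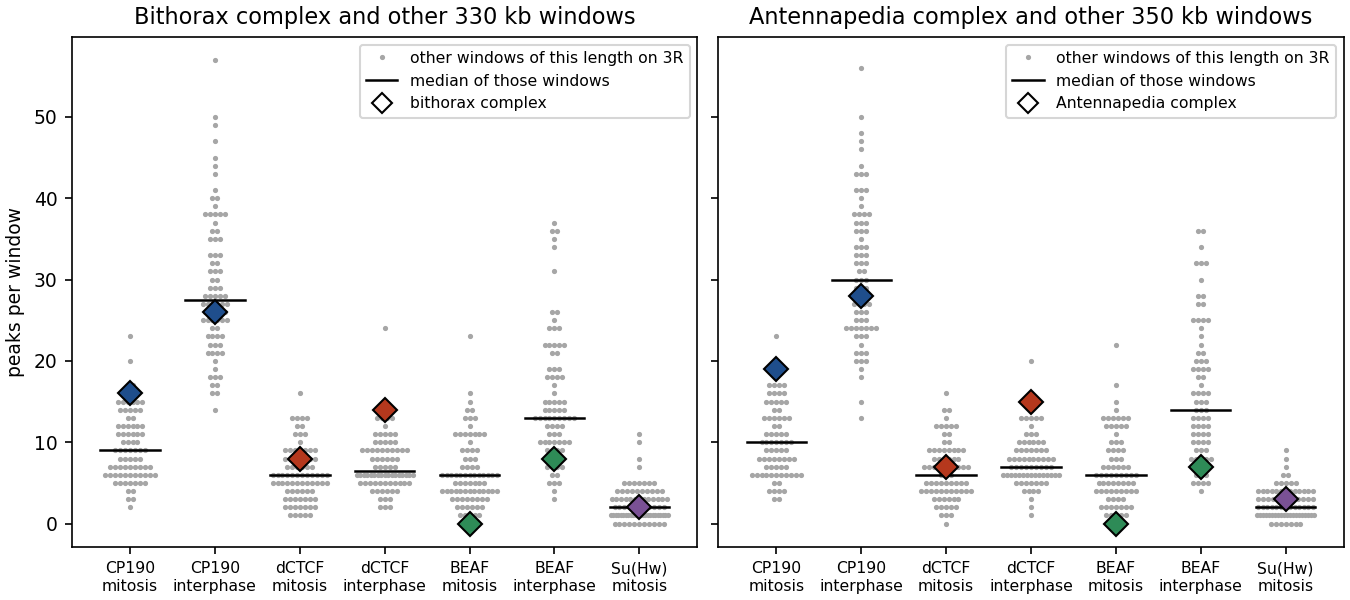
Peaks per window in the bithorax complex (left, diamonds) and in the Antennapedia complex (right, diamonds), beside consecutive windows of the same length on the rest of 3R (grey points, 80 on the left and 75 on the right) and their median (black line). Mitotic BEAF stands at 0 in both complexes against a median of 6, while interphase dCTCF stands at 14 and 15 against medians of 6.5 and 7.

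In interphase dCTCF was denser in the complexes than in the rest of 3R, clear of counting error only in the Antennapedia complex. The bithorax complex had 4.24 interphase dCTCF peaks per 100 kb and the Antennapedia complex 4.29, against 2.31 in the rest of the arm, ratios of 1.84 (0.998 to 3.10) and 1.85 (1.03 to 3.08). The first interval just includes 1. With windows shortened by 20 kb the ratios were 1.48 (0.708 to 2.75) and 1.94 (1.06 to 3.29), and with windows extended by 20 kb 1.75 (0.976 to 2.92) and 1.78 (1.01 to 2.91). Among interphase dCTCF peaks scoring at least 100 they were 2.59 (1.37 to 4.48) and 2.07 (1.02 to 3.74). Of the windows of equal length, 4 of 80 held as many interphase dCTCF peaks as the bithorax complex or more, and 4 of 75 as many as the Antennapedia complex or more. In mitosis the densities were 2.42 and 2.00 peaks per 100 kb, against 1.87 in the rest of 3R, and the ratios of 1.29 (0.555 to 2.57) and 1.07 (0.427 to 2.21) lay within counting error of 1. Among mitotic dCTCF peaks scoring at least 100 the ratio of the bithorax complex was 2.69 (1.15 to 5.39) and that of the Antennapedia complex 1.90 (0.692 to 4.20). In mitosis 25 of 80 and 37 of 75 windows held as many or more.

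In interphase, dCTCF peaks in the highest 20% of scores were more frequent in the bithorax complex than in the Antennapedia complex. Of the interphase dCTCF peaks, 10 of 14 of the bithorax complex were in the highest 20% of the 3R list (71.4%, 45.4 to 88.3%) and 5 of 15 of the Antennapedia complex (33.3%, 15.2 to 58.3%), against 18.6% in the rest of 3R. The difference between the complexes was 38.1 points (2.00 to 62.9), and that between the Antennapedia complex and the rest of 3R, 14.7 points (-3.71 to 39.8), was within counting error of 0. The median interphase score was 3100 in the bithorax complex, 161.11 in the Antennapedia complex and 181.91 in the rest of 3R. In mitosis 5 of 8 and 4 of 7 dCTCF peaks were in the highest 20%, against 18.8% in the rest of 3R, and the difference between the complexes was 5.36 points (-36.5 to 45.3).

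Along the bithorax complex, the interphase dCTCF sites left the low-coordinate part nearly empty and then followed each other to the high-coordinate end. Apart from a pair of peaks at the low limit, at 12481484 to 12481825 (74.09) and 12481847 to 12482339 (869.34), there was no interphase dCTCF peak over the next 91.7 kb. The same stretch had no interphase CP190 peak. By the gene order this is the Ubx end of the complex.

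From there 12 interphase dCTCF peaks followed, with neighbouring midpoints 8.2 to 36.6 kb apart. The first was at 12574077 to 12574808, with a score of 3100, where CP190 scored 379.63 in mitosis and 3007.01 in interphase. It had no mitotic dCTCF call. The next, at 12608054 to 12608600 (1369.16), lay at a weak interphase CP190 peak (149.49) and was the only interphase dCTCF site of the bithorax complex with neither protein called in mitosis.

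At 12623535 to 12625015 lay a site found in 6 lists, missing only from that of mitotic BEAF. Its mitotic scores were 3100 for CP190, 256.42 for dCTCF and 1635.75 for Su(Hw), and its interphase scores 3100 for CP190, 3100 for dCTCF and 213.85 for BEAF. Its mitotic CP190 and Su(Hw) peaks had the highest scores of those lists in the complex. This was the strongest Su(Hw) site of either complex.

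The next 4 dCTCF sites were called for dCTCF and CP190 in both phases and for no other protein. At 12660158 to 12660881 the mitotic dCTCF score was 112.76 and the interphase score 3100. At 12682640 to 12683732 they were 276.82 and 3007.34, and CP190 scored 84.97 in mitosis and 763.78 in interphase. At 12694633 to 12695534 CP190 scored 1465.35 in mitosis and 3100 in interphase, and dCTCF 183.3 and 3100. At 12707945 to 12708940 the mitotic dCTCF score, 475.19, was the second of the complex, beside an interphase score of 3100. These sites lay 12.2 to 22.4 kb apart, and each had dCTCF among the highest 20% of interphase scores on 3R.

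The highest mitotic dCTCF score of both complexes, 2186.66, belonged to the site at 12744505 to 12745348. CP190 there scored 1956.59 in mitosis and 3100 in interphase, dCTCF 3100 and BEAF 55.61 in interphase. The remaining sites toward the high-coordinate end, the Abd-B end by gene order, were at 12759827 to 12760916 (interphase dCTCF score 2722.24), 12783313 to 12784049 (3100), 12795040 to 12796063 (3100) and 12803552 to 12803992 (159.09). All 4 had CP190 in mitosis, with scores of 239.15, 241.25, 478.6 and 141.47, but mitotic dCTCF was called only at the one at 12795040 (194.01), which with an interphase BEAF peak (50.79) was called in 5 lists.

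In the Antennapedia complex strong interphase dCTCF sites were fewer and were separated by weaker ones. The strongest were at 2585024 to 2585765, 2737681 to 2738383 and 2798727 to 2799478, each with a score of 3100, at 2795991 to 2796807 (2580.77) and at 2509262 to 2509856 (2122.32). All of these except the last were retained in mitosis, with mitotic dCTCF scores of 338.3, 339.51, 197.22 and 774.51. The site at 2737258 to 2738449 was found in 6 lists, without mitotic BEAF, and had the highest mitotic CP190 score of the complex (2426.15) and its highest Su(Hw) score (389.81). The site at 2584934 to 2585905 was called in 5 lists, with a mitotic CP190 score of 920.28.

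The other 10 interphase dCTCF peaks of the Antennapedia complex scored 56.59 to 955.51. They were at 2485430 to 2486076 (161.11), 2531973 to 2532536 (124.91), 2534560 to 2534988 (955.51), 2594003 to 2594346 (95.66), 2605717 to 2606275 (148.58), 2632277 to 2632843 (245.76), 2680049 to 2680400 (56.59), 2696532 to 2696902 (108.29), 2733864 to 2734269 (97.22) and 2738470 to 2738799 (97.47). Only the first of them was retained, in the site at 2485149 to 2486076 that was called in 5 lists, where the mitotic dCTCF score was 118.94. Each of these 10 lay at an interphase CP190 peak: the CP190 scores at 2531973, 2632277, 2605717 and 2733864 were 3100, 3100, 3087.86 and 3139.09, the last being the highest CP190 score in either complex.

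dCTCF retention was 7 of 14 in the bithorax complex (50%, 26.8 to 73.2%) and 5 of 15 in the Antennapedia complex (33.3%, 15.2 to 58.3%), against 31.0% in the rest of 3R. The differences of 19.0 points (-4.50 to 42.5) and 2.33 points (-16.2 to 27.5) were within counting error of 0, and so was the difference between the complexes, 16.7 points (-17.4 to 46.1). In the complexes, retained dCTCF peaks were mainly those with high scores. In the highest band of 20%, 7 of 10 and 4 of 5 were retained, beside 61 of 117 in the rest of 3R (52.1%, 43.2 to 61.0%), and in the lower bands 0 of 4 and 1 of 10, beside 134 of 512 in the rest of 3R (26.2%, 22.6 to 30.1%). In the rest of 3R retention did not rise steadily with score, at 37.4, 36.5, 23.6, 7.03 and 52.1% from lowest to highest band. With the rest of 3R weighted to the scores of the members, its retained share was 42.5% for the bithorax complex and 36.4% for the Antennapedia complex, both inside the intervals of the complexes. The strongest unretained dCTCF peaks of the bithorax complex were those at 12574077 and 12783313, both with a score of 3100, and in the Antennapedia complex those at 2509262 and 2534560.

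Read from the mitotic list, dCTCF peaks in the bithorax complex lay more often at interphase dCTCF sites than in the rest of 3R. This was so for 7 of 8 mitotic dCTCF peaks of the bithorax complex (87.5%, 52.9 to 97.8%), against 37.1% in the rest of 3R, a difference of 50.4 points (15.6 to 61.5). In the Antennapedia complex it was so for 5 of 7 (71.4%, 35.9 to 91.8%), and the difference of 34.4 points (-1.42 to 55.1) was within counting error of 0. The exceptions were a broad region of the bithorax complex at 12581841 to 12588388 (110.85) and a pair of peaks at the low limit of the Antennapedia complex, at 2482470 to 2483221 (149.08) and 2483408 to 2484315 (67.08). The pair formed 1 site with interphase CP190 (1619.68) and BEAF (707.69) peaks.

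**Figure D3:**
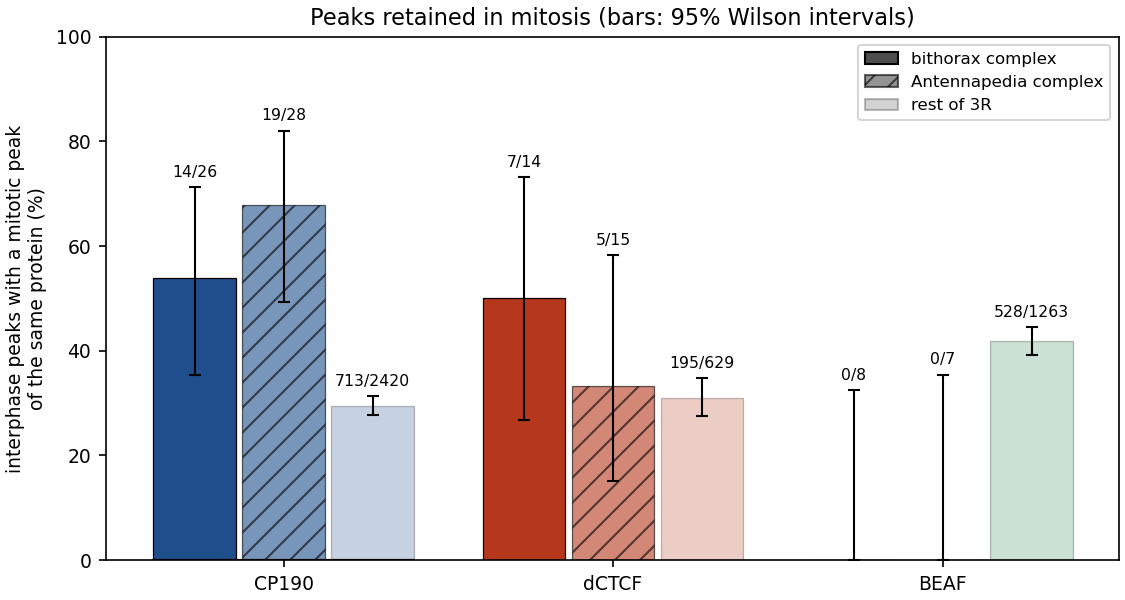
Share of interphase peaks that overlap a mitotic peak of the same protein, in %, for the bithorax complex, the Antennapedia complex and the rest of 3R. Bars are shares, error bars 95% Wilson intervals (counting error only), and the fractions give retained peaks over interphase peaks; CP190 stands higher in both complexes than in the rest of 3R, and BEAF at 0.

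CP190 was about as dense in the complexes as elsewhere in interphase. In mitosis it was denser, clear of counting error at the given limits only in the Antennapedia complex. In interphase the bithorax complex had 7.88 and the Antennapedia complex 8.0 CP190 peaks per 100 kb, against 8.89 in the rest of 3R, ratios of 0.886 (0.578 to 1.30) and 0.90 (0.597 to 1.30). In mitosis the densities were 4.85 and 5.43, against 2.91 in the rest of 3R, ratios of 1.66 (0.946 to 2.72) and 1.86 (1.12 to 2.93), of which the interval of the bithorax complex includes 1. Among peaks scoring at least 100 the mitotic ratios were 2.27 (1.2 to 3.92) and 2.47 (1.37 to 4.12). With windows shortened by 20 kb they were 1.53 (0.813 to 2.64) and 1.88 (1.09 to 3.02). With windows extended by 20 kb they were 1.57 (0.912 to 2.54) and 1.67 (0.9995 to 2.62), and both intervals include 1. Without the broad region described below, the ratio of the bithorax complex was 1.56 (0.869 to 2.59). In mitosis 7 of 80 windows held as many CP190 peaks as the bithorax complex or more, and 3 of 75 as many as the Antennapedia complex or more. In interphase these counts were 51 of 80 and 44 of 75.

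CP190 peaks of the complexes were retained more often than those of the rest of 3R. In the bithorax complex 14 of 26 were retained (53.8%, 35.5 to 71.2%) and in the Antennapedia complex 19 of 28 (67.9%, 49.3 to 82.1%), against 29.5% in the rest of 3R. The differences were 24.4 points (5.90 to 41.9) and 38.4 points (19.8 to 52.7). The complexes differed from each other by -14.0 points, bithorax minus Antennapedia, with an interval of -37.2 to 11.4 that includes 0. In the opposite direction, 14 of 16 and 19 of 19 mitotic CP190 peaks had an interphase call, against 91.0% in the rest of 3R.

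Interphase CP190 peaks with high scores were also more frequent in the complexes. Of the interphase CP190 peaks, 11 of 26 of the bithorax complex and 16 of 28 of the Antennapedia complex were in the highest 20% of the 3R list, against 19.3% in the rest of 3R, differences of 23.0 points (6.13 to 41.8) and 37.8 points (19.7 to 54.2). In mitosis 7 of 16 and 5 of 19 were, against 19.4%, differences of 24.3 points (3.48 to 47.5) and 6.90 points (-7.90 to 29.5), of which the second was within counting error of 0. Within the highest band of interphase scores 11 of 11 and 14 of 16 CP190 peaks were retained, beside 325 of 468 in the rest of 3R (69.4%, 65.1 to 73.4%). With the rest of 3R weighted to the scores of the members, its retained share was 39.3% for the bithorax complex and 48.2% for the Antennapedia complex, which lies inside the interval of the bithorax complex and just below that of the Antennapedia complex. The highest band spans scores of 1206.25 to 3233.06, and scores within it were not matched, so retention beyond that of like scores is not shown.

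Most of the retained CP190 peaks were at interphase dCTCF sites. With dCTCF, 12 of 14 interphase CP190 peaks of the bithorax complex and 13 of 16 of the Antennapedia complex were retained, against 54.4% of such peaks in the rest of 3R. For the complexes together the share was 83.3% (66.4 to 92.7%), 28.9 points above the rest of 3R (11.5 to 39.2). Without dCTCF the counts were 2 of 12 and 6 of 12, against 23.0% in the rest of 3R, and for the complexes together 33.3% (18.0 to 53.3%). The difference for the complexes together, 10.3 points (-5.15 to 30.4), was within counting error of 0. So was that of the bithorax complex, -6.33 points (-18.5 to 21.9). In the Antennapedia complex the interval without dCTCF, 2.31 to 51.7 points, lay above 0, as did that with dCTCF, 2.19 to 39.8. Higher retention there was thus not limited to dCTCF sites. Among its peaks without dCTCF in the lower 80% of scores, the difference of 25.3 points (-0.356 to 54.2) was within counting error of 0. Within the highest 20% of scores, CP190 peaks with dCTCF were retained in 23 of 24 cases in the complexes and in 207 of 237 in the rest of 3R (87.3%, 82.5 to 91.0%), a difference of 8.49 points (-7.99 to 14.4) that was within counting error of 0.

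The highest scoring CP190 peaks in mitosis were those at 12623952 to 12624921 (3100) and 12744558 to 12745178 (1956.59) in the bithorax complex and at 2737754 to 2738424 (2426.15) and 2647768 to 2648618 (1150.27) in the Antennapedia complex. The first 3 were dCTCF sites. The last lay in a cluster of CP190 peaks between 2644794 and 2648954 without dCTCF or BEAF, in which the peak at 2645487 to 2646657 also had CP190 in both phases and where 2 weak Su(Hw) peaks were called (71.59 and 63.18). In interphase the score of 3100 was shared by 5 CP190 peaks of the bithorax complex, among them the one at 12481870 to 12482501, and by 7 of the Antennapedia complex, among them the one at 2485369 to 2486018.

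The strongest CP190 peaks without a mitotic CP190 call were at 2679968 to 2680606 (1930.13) and 2482705 to 2483906 (1619.68) in the Antennapedia complex. In the bithorax complex they were at 12480839 to 12481790 (1186.14) and 12807571 to 12808437 (212.57), both close to the limits of the window. Mitotic CP190 peaks without an interphase CP190 call were 2 in number, both in the bithorax complex and weak, at 12528580 to 12528985 (78.92) and in the broad region at 12582099 to 12588401 (57.98). The first was the only site of either complex called in mitosis alone, and it lay within the long stretch at the Ubx end that held no interphase peak of CP190 or dCTCF.

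**Figure D4:**
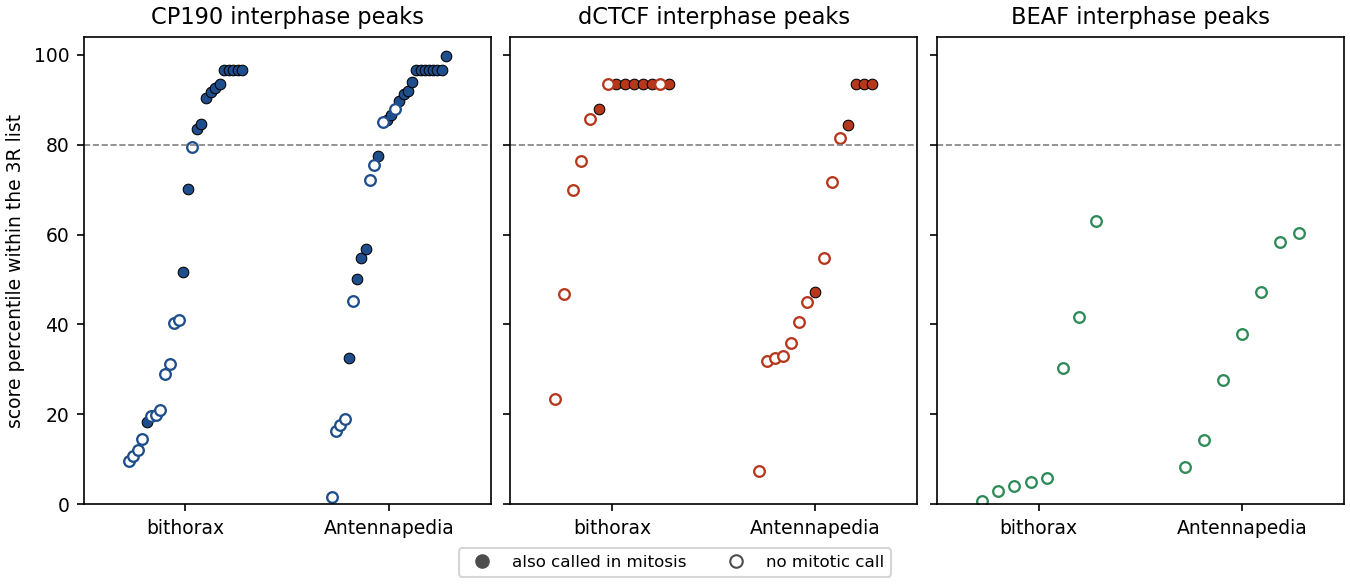
Interphase peaks of the complexes by the percentile of their score among the 3R peaks of the same list (y axis), for CP190, dCTCF and BEAF; filled points overlap a mitotic peak of the same protein, open points do not, points are spread sideways in order of score, and the dashed line marks the 80th percentile. Filled points gather at the top for CP190 and dCTCF, and all 15 BEAF points are open and below the line.

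All interphase dCTCF peaks of the complexes lay at interphase CP190 peaks, 14 of 14 and 15 of 15 (for both together 100%, 88.3 to 100%), against 78.9% in the rest of 3R, a difference of 21.1 points (9.07 to 24.5). For the bithorax complex alone the interval of the difference, -0.596 to 24.5, includes 0. With a reciprocal overlap of 50% the counts were 12 of 14 and 12 of 15, and the rest of 3R was not computed at that setting. CP190 was also called in mitosis at 12 of 14 and 13 of 15 interphase dCTCF peaks, against 42.9% in the rest of 3R, differences of 42.8 points (16.8 to 53.8) and 43.7 points (18.9 to 54.1). Scores were not matched in this comparison. For interphase CP190 peaks with dCTCF in the highest 20% of scores, the difference in retention was 8.49 points (-7.99 to 14.4). Mitotic CP190 was present at 5 dCTCF sites of the bithorax complex and at 9 of the Antennapedia complex that had no mitotic dCTCF call. By contrast 1 site, at 2798727 to 2799560 in the Antennapedia complex, had mitotic dCTCF and no mitotic CP190. The share of such sites in the rest of 3R was not computed, so these counts are not shown to be particular to the complexes. In the other direction, 14 of 26 and 16 of 28 interphase CP190 peaks carried dCTCF, against 20.6% in the rest of 3R, differences of 33.3 points (14.8 to 50.7) and 36.6 points (18.4 to 53.0). In mitosis 8 of 8 dCTCF peaks of the bithorax complex, with the broad region among them, and 4 of 7 of the Antennapedia complex overlapped mitotic CP190, against 32.0% in the rest of 3R. The differences were 68.0 points (35.3 to 71.9) and 25.2 points (-7.18 to 52.5), of which the second was within counting error of 0.

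The BEAF peaks of the complexes lay mainly at these same sites. Interphase BEAF overlapped interphase dCTCF at 7 of 8 peaks of the bithorax complex and 5 of 7 of the Antennapedia complex, against 26.2% in the rest of 3R, differences of 61.3 points (26.6 to 71.8) and 45.2 points (9.60 to 65.7). It overlapped interphase CP190 at 7 of 8 and 7 of 7, against 78.8% in the rest of 3R. Only 7 of 26 and 6 of 28 interphase CP190 peaks carried BEAF, against 40.5% in the rest of 3R, differences of -13.6 points (-27.0 to 5.64) and -19.1 points (-30.5 to -0.895), of which the first includes 0. Of the interphase dCTCF peaks, 7 of 14 and 5 of 15 did, against 51.5%.

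Su(Hw) had few peaks in the complexes, and at these counts its density could not be told from that of the rest of 3R. The bithorax complex had 0.606 and the Antennapedia complex 0.857 mitotic Su(Hw) peaks per 100 kb, against 0.735 in the rest of 3R. The ratios were 0.825 (0.0992 to 3.02) and 1.17 (0.239 to 3.46). All 5 Su(Hw) peaks lay at a mitotic CP190 peak, against 56.5% in the rest of 3R, a difference of 43.5 points (-0.459 to 50.4) whose interval includes 0. In the highest 20% of scores were 2 of 2 and 1 of 3, against 19.0%.

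A Su(Hw) peak with a score of 406.9 belonged to a broad region of the bithorax complex, from 12581841 to 12588401 with a width of 6561 bp. This region was called for Su(Hw), dCTCF (110.85) and CP190 (57.98) in mitosis and for BEAF (58.2) in interphase, and not for CP190 or dCTCF in interphase. Its 4 peaks were 6008 to 6548 bp wide and were the widest of their lists in either complex. Without this region, which was set aside after the data were seen, the bithorax complex held 1 Su(Hw) peak and the density ratio was 0.412 (0.0104 to 2.32). With the region kept, and among peaks scoring at least 100, the 2 Su(Hw) peaks of the bithorax complex gave a ratio of 2.11 (0.252 to 7.90).

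When all lists were merged, the median spacing of sites was wider in the complexes than in the rest of 3R. No interval was computed for spacing or for sites per 100 kb, so a difference beyond counting error is not shown. The median distance between neighbouring sites was 10082.5 bp in the bithorax complex and 9504 bp in the Antennapedia complex, against 4530 bp in the rest of the arm, and there were 8.18 and 7.71 sites per 100 kb against 10.3. For interphase dCTCF alone the order was the opposite, with median distances of 15487 and 19123.5 bp against 27662 bp. The longest stretches with no peak of any list were 46.1 kb at 12482502 to 12528579 and 45.1 kb at 12528986 to 12574076 in the bithorax complex, and 49.0 kb at 2535920 to 2584933 in the Antennapedia complex. Dividing each window into 3 equal parts, the bithorax complex had 5, 4 and 7 mitotic and 5, 7 and 14 interphase CP190 peaks from low to high coordinate, and the Antennapedia complex 6, 7 and 6 and 9, 11 and 8. Mitotic dCTCF had 1, 4 and 3 peaks in the bithorax complex and 4, 0 and 3 in the Antennapedia complex, whose middle part had 4 interphase dCTCF peaks.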

How the data were processed

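The data are 7 ChIP-seq peak lists, 1 per library. Per the submitters' processing notes the aligner was Bowtie 0.12.5. For the peak caller's version, threshold and control and for the genome build, nothing is given in the sources used here. The deposited score of each peak is the authors' value (floor 50, many ties at 3100) and was used to rank peaks within 1 list. Read numbers were not used here, so depth is unknown. Groups were taken from the sample titles.

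Peaks were assigned to a complex by midpoint and compared with the rest of 3R (27214.6 kb, taking the highest peak end as the arm's length). Shares have 95% Wilson intervals, differences Newcombe intervals, and density ratios exact conditional intervals; no p-value was computed. Windows of equal length are a description of the arm. For 42 of 42 list pairs on 3R, bedtools 2.31.1 gave the same overlap counts, and the code was tested on simulated lists. Python 3.11.15, SciPy 1.17.1 and matplotlib 3.10.9 were used.

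The complexes, tests and lists were chosen with earlier results of these data known. The text names, per complex, the 2 highest scoring peaks of each list, sites called in 5 or more lists, mitotic peaks without an interphase call, each interphase dCTCF peak, and the 2 strongest interphase peaks per protein without a mitotic call. Of peaks tied in score, those with the lowest coordinate are named. Distances, partner classes, bands of score and sites named outside this rule were added after the data were seen.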

Additional observations from a re-analysis of the deposited data

How the results depend on the processing

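Retained shares, density ratios, overlaps of dCTCF with CP190 and counts of merged sites were recomputed with peaks scoring at least 100, a reciprocal overlap of 50%, equal numbers of the highest scoring 3R peaks, 400 bp around each midpoint, limits moved by 20 kb, membership by any overlap, all main arms as the comparison, merging over 500 bp, or without the broad region of the bithorax complex (added, like the alternatives for dCTCF with CP190, after the data were seen), each where it applied. Of 138 recomputed values, 136 stayed within the counting interval of the reported value, or, for counts of sites, within 1.5 times of it. This is a weak check, since those intervals are wide and some alternatives, such as membership by any overlap, changed no value. The interphase BEAF ratio of the bithorax complex counted as within although it went from 0.522 to 0.995 with windows extended by 20 kb. With equal numbers of the highest scoring peaks the retained share of CP190 in the bithorax complex was 92.3%, of 13 interphase peaks. With a score of at least 100 the density ratio of mitotic dCTCF in the bithorax complex was 2.69 (1.15 to 5.39). With windows extended by 20 kb the retained share of BEAF in the bithorax complex was 23.5% of 17 peaks in place of 0, and with windows shortened by 20 kb the density ratio of mitotic dCTCF in the Antennapedia complex was 0.685 in place of 1.07; the cause was not tested. With a score of at least 100 there were 3 interphase BEAF peaks in the bithorax complex, a ratio of 0.252, and with shortened windows the ratio of interphase BEAF in the Antennapedia complex was 0.278. No paired analysis was possible because each group is 1 library, and for the same reason no replicate could be left out. The unknown depth and the small counts limit what these lists can show.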

Other observations

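The 100 kb on each side of the bithorax complex held mitotic BEAF peaks, 6 on the Ubx side and 4 on the Abd-B side, with highest scores of 361.34 and 2779.33. Beside the Antennapedia complex there were 0 on the lab side and 3 on the Antp side. The lab side held 0 mitotic and 4 interphase CP190 peaks, where the rest of 3R had 2.91 and 8.89 per 100 kb, and 1 interphase BEAF peak, where it had 4.64. It held 1 mitotic and 2 interphase dCTCF peaks, where the rest of 3R had 1.87 and 2.31 per 100 kb, and 0 Su(Hw) peaks, where it had 0.735. On the Abd-B side of the bithorax complex the interphase dCTCF peaks numbered 4 and scored at most 107.46, while on the Ubx side there were 6, with a highest score of 3100.

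Above the Su(Hw) peak at 12624089 to 12624799 in the bithorax complex, no further Su(Hw) peak was called for 731.0 kb, which was the third longest such interval on 3R and took in the whole part of the complex toward Abd-B.

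Retained CP190 peaks were narrower in mitosis than in interphase in 14 of 14 cases in the bithorax complex and 16 of 19 in the Antennapedia complex, beside 575 of 713 in the rest of 3R. The median ratio of the widths was 0.778, 0.713 and 0.760. For retained dCTCF peaks the median ratio was 0.858 in 7 peaks of the bithorax complex, 1.14 in 5 of the Antennapedia complex and 1.39 in 195 of the rest of 3R. The midpoints of the mitotic and interphase peaks lay a median of 44.5 and 63.5 bp apart for CP190 in the complexes, and 55.5 and 74 bp apart for dCTCF, beside 65 bp for CP190 and 126.5 bp for dCTCF in the rest of 3R.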
